A study of Zea mays with 48 samples.

Results

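The subject is 44 genes of maize roots whose transcripts stood at least 2-fold above both reference groups at 12, 24, 36 and 48 h of tunicamycin. They were chosen by measured values from the 23753 genes of the count table. For each gene the mean CPM (a gene's counts over all counts of its library, in the usual CPM scale) of a group's 3 libraries was taken as log2(mean + 1). A gene was kept if its mean was 1 CPM or more at 0 h or in the 48 h mock, and if its log2 value at each of the 4 times exceeded the higher of those reference groups by at least 1. Of the 23753 genes, 22997 had such a level in a reference group. Everything the rule used, that is, the levels at 0 h, in the mock and from 12 to 48 h, is given as a description. The 3 h and 6 h libraries took no part in the choice.

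Tunicamycin stops the first step of N-linked glycosylation, so glycoproteins made at the endoplasmic reticulum (ER) fail to fold. Plant cells answer with the unfolded protein response. Membrane-bound transcription factors are released by proteolysis, the kinase and ribonuclease IRE1 splices the messenger of another transcription factor, and genes for chaperones, foldases and the degradation of misfolded proteins are switched on. A response that is not resolved is known to turn towards autophagy and cell death. The identifiers in the files are not paired with gene names. None of the 23753 (0 identifiers) matched the reference table of 49888 genes, so which of these roles a member has is not given, lists of chaperones, degradation genes or root and shoot markers could not be counted, and the root label was not checked against markers.

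The series used seedlings of the inbred B73, germinated on wet paper, grown for 7 days and then given tunicamycin at 5 µg/ml, with roots taken for paired-end RNA-seq. The groups were 0, 3, 6, 12, 24, 36 and 48 h of tunicamycin and a mock treatment of 48 h, with 3 libraries each, numbered I, II and III. The labels do not say what the mock held or how many plants made a library. Since only 48 h has a mock of its own age, a difference from 0 h holds both drug and time in culture, which cannot be told apart at the other times.

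The counts of a library over the listed genes summed to 7701856 to 38577551. The lowest total was in library II of 24 h, for which 1 sequencing lane was used. The sample titles give other times to some lanes than the library names do. The library names, which the count columns also carry, were followed here, and 0 genes met the rule when the groups were taken from the titles. Libraries I and II of a group were closer to each other than to III in all 8 groups. Their chi-square per degree of freedom over genes was 2.18 to 42.8, against 29.7 to 77.9 for pairs with III. In 7 of 8 groups, 48 h being the exception, I and II differed less than the lanes of a single library did (5.18 to 74.7 over libraries). The series' design text speaks of 3 biological and 2 technical replicates, without tying these words to the numerals or the lanes. The p-values therefore measure the spread between libraries, which may be partly technical. Counts of early calls, and the early tests of single members, are therefore also given with I and II summed.

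In untreated roots the 44 genes together took 0.446% ± 0.0546 of all counts at 0 h (SD, n = 3 libraries) and 0.397% ± 0.0108 in the mock. Under the drug the share was highest at 12 h, with 1.82% ± 0.562, followed by 24 h with 1.75% ± 0.223, 36 h with 1.54% ± 0.0390 and 48 h with 1.39% ± 0.384, though the libraries of these times overlap. Between untreated and 12 h lay 6 h, with 0.730% ± 0.0625. At 3 h the share was 0.493% ± 0.0593, and its libraries overlapped those of 0 h. Libraries I, II and III held 0.452%, 0.466% and 0.561% at 3 h, against 0.482%, 0.473% and 0.383% at 0 h. Only library III was thus higher at 3 h. In these bulk roots more RNA per cell and more cells that make the RNA cannot be told apart. The wide errors at 12 and 48 h come with library III, which held 1.17% at 12 h against 2.10% and 2.18% in I and II, and 0.960% at 48 h against 1.51% and 1.70%.

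**Figure D1:**
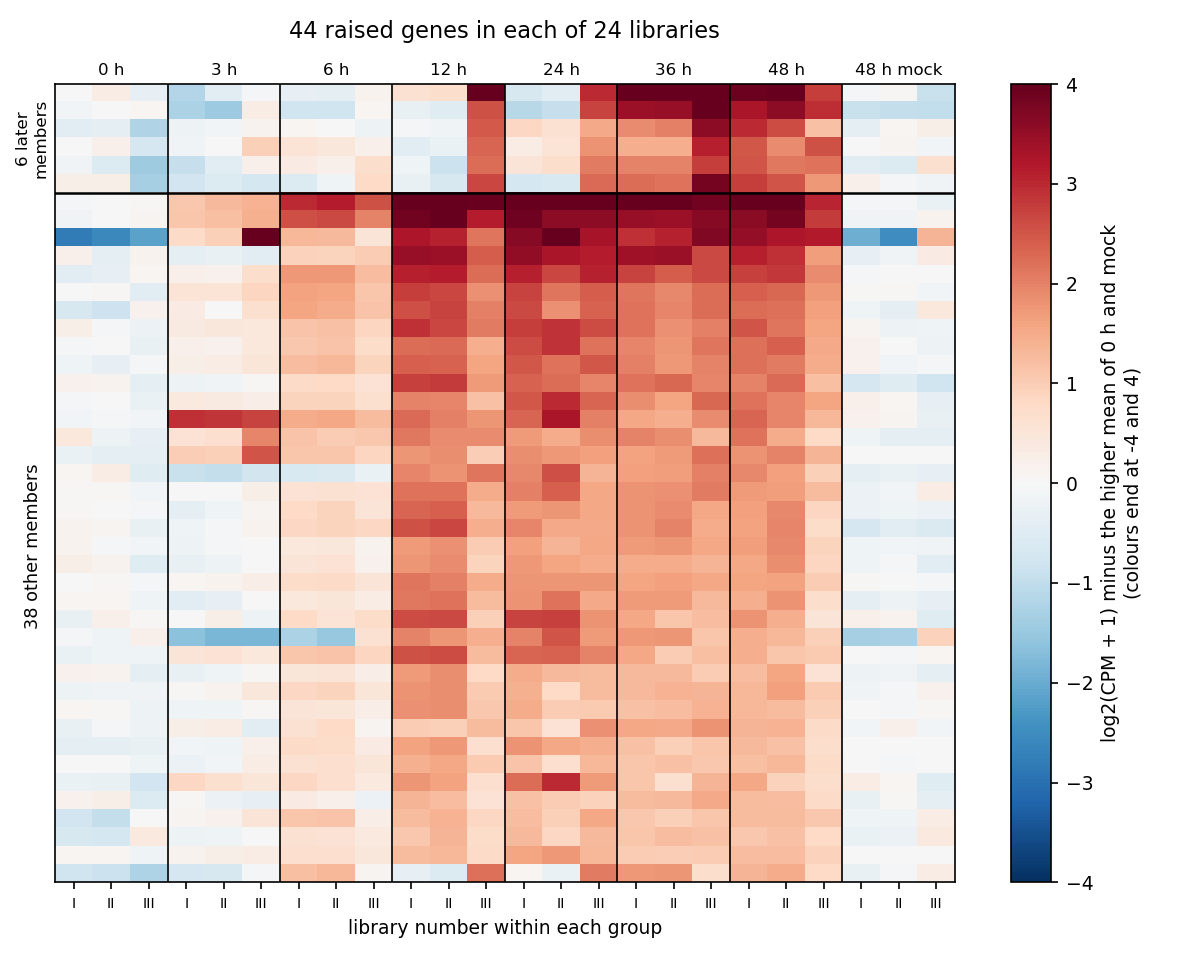
Each row is 1 of the 44 genes and each column 1 of the 24 libraries, and the colour is log2(CPM + 1) minus the higher mean of 0 h and mock on the same scale. Most rows are red in most of the 12 libraries from 12 to 48 h, while the 6 rows above the line are red at 12 and 24 h in library III and pale in libraries I and II.

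The lowest of a gene's 4 rises had a median of 1.43 over the members on the log2 scale, and ranged from 1.01 to 3.85. In 8 members it was at least 2. The time that set it was 48 h in 18 members, 36 h in 11, 24 h in 8 and 12 h in 7. The highest mean fell at 12 h in 15 members, at 24 h in 17, at 36 h in 11 and at 48 h in 1. From 24 to 48 h the mean went down in 33 members, with a median change of -0.24 on the log2 scale over all 44. By these means most members held their level or receded slowly after 24 h, but the fall leans on library III of 48 h. The median of the 44 over the higher reference was 1.80, 1.76 and 1.80 in libraries I, II and III of 24 h. At 48 h it was 1.80, 1.91 and 1.06. How many of all genes went down from 24 to 48 h was not counted.

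Just inside the threshold lay a gene with a lowest rise of 1.01, reached at 12 h, where it averaged 8.71 CPM against 3.81 CPM in the mock. Library III carried that mean, with 2.85, 2.27 and 21.01 CPM in I, II and III, and without it the mean was 2.56 CPM, below the mock. Just outside lay one with 0.999, reached at 24 h, with 16.9 CPM against 7.93 CPM in the mock. Of the 44 members, 13 had a lowest rise under 1.1.

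Zm00001d021120 had the largest lowest rise of the 44 members, 14.4-fold on the CPM + 1 scale. At 0 h its libraries I, II and III had 20.6, 21.1 and 22.1 CPM, and in the mock 20.6, 20.1 and 17.6 CPM. It held 46.1, 53.9 and 57.5 CPM at 3 h and 176.5, 196.2 and 130.5 CPM at 6 h. The libraries of 0 h, 3 h and 6 h did not overlap, and against 0 h the log2 fold change was 1.34 at 3 h (SE 0.28, adjusted p = 0.00397, edgeR), with an adjusted p of 0.116 when I and II were summed. At 12 h it reached 723, 762 and 341 CPM, and at 24 h it held 528, 522 and 448 CPM. It then held 401, 392 and 322 CPM at 36 h and 374, 404 and 184 CPM at 48 h. The mean was highest at 12 h, and library III was the lowest of its group at all times from 6 to 48 h.

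Zm00001d014993 had the highest level per gene length at 48 h, with a mean of 459 RPKM (reads scaled to gene length and library depth, from the authors' values). That exceeded its 135 RPKM at 0 h and 83.1 RPKM in the mock. At 0 h its libraries I, II and III had 595, 585 and 403 CPM, and in the mock 334, 379 and 305 CPM. At 3 h they held 458, 484 and 549 CPM, within the range of 0 h. At 6 h they held 904, 919 and 788 CPM, above every library of 0 h and 3 h. The step from 0 h to 6 h did not pass the test (log2 fold change 0.67, SE 0.27, adjusted p = 0.070, edgeR). It passed in 5 alternatives and did not in 10. Among the 5 were only the groups compared (0.0374), lane 7 alone (0.0283) and the fit without library III of 12 h (0.0282, all edgeR). With the library number as a term in the model of all groups it also passed (adjusted p = 0.0155, edgeR). Over all genes, though, library II of 6 h correlated best with library I of 0 h and not with its own number. With I and II summed the step did not pass (adjusted p = 0.282, edgeR). At 12 h the libraries stood at 3511, 3685 and 1707 CPM, and at 48 h at 2107, 2545 and 1216 CPM. At 3 h this gene lay within its 0 h range, whereas Zm00001d021120 lay above its own.

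**Figure D2:**
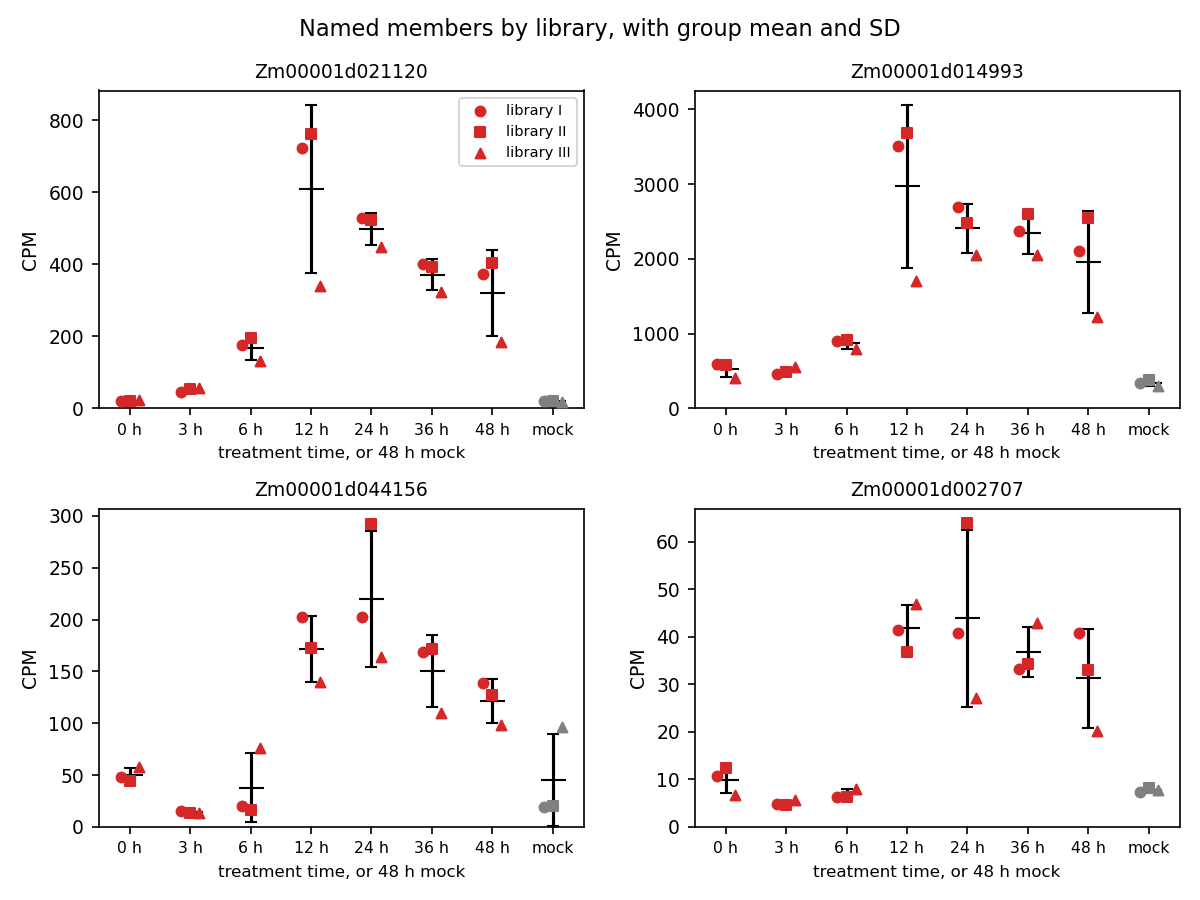
CPM of 4 members (linear axes from 0) in each library of each group, with the group mean and SD (n = 3). The upper panels show the member with the largest lowest rise and the member with the highest RPKM at 48 h, and the lower panels show the 2 members that were called lower at 3 h against 0 h.

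The members covered a wide span of abundance. Per gene length, their mean at 0 h went from 0.207 to 167 RPKM with a median of 6.32, and at 48 h from 1.90 to 459 RPKM with a median of 28.2. The 7 members with over 500 CPM at 48 h supplied 69.9% of the members' summed CPM at that time. These 7 were already abundant without drug, at 59.98 to 167 RPKM at 0 h, and stood at 126 to 459 RPKM at 48 h. Their lowest rises were 1.01 to 1.89, so none of the 7 was among the 8 steepest members, whose level at 0 h was 0.207 to 49.4 RPKM. The recovered gene length of the members had a median of 4150 bp (246 to 11340 bp), against 3513 bp over all 23753 genes.

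The reference groups lay close together for most members. The mean at 0 h and in the mock differed by less than 1.5-fold on the CPM + 1 scale in 38 of the 44, with the mock the higher in 25 and 0 h in 19. Because the rule used both groups, this is a description. Over all genes the log2 fold change of mock against 0 h had lower and upper quartiles of -0.26 and 0.27 (edgeR). Closeness of the reference groups is thus not particular to the members. None of the members (0 genes) was called between mock and 0 h (edgeR, quasi-likelihood, adjusted p below 0.05). Of all genes 0.922% were called higher and 1.14% lower in the mock, so 0 calls lie near the share of all genes. An unadjusted p under 0.05 was found in 4 members, 2 of them higher in the mock. The same held for 5074 of all 23753 genes, 2683 of them higher.

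In the contrasts the rule used, the same test called 36 of the 44 members higher at 12 h against 0 h, where 0.914% of all genes were called higher and 0.37% lower. It called 40 higher at 24 h (10% of all genes higher, 8.17% lower), 43 at 36 h (4.19% and 4.49%) and 43 at 48 h (12.1% and 11.9%). Against the mock at 48 h it called 33 higher, where 0.337% of all genes were called higher and 0.135% lower. In none of these 5 contrasts was a member called lower (0 genes). All 5 calls together were held by 32 members, a count that was not made over all genes. In 37 members all 12 libraries from 12 to 48 h lay above all 6 libraries of 0 h and mock, which was found for 0.47% of the 22997 genes past the floor. Nothing is read from these shares, since the members were chosen on the same values.

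The members differed in how they reached this state, and in 7 of them library III alone was past the margin at both 12 and 24 h. Of these 7, 6 were also the members, picked out after the values were seen, whose mean log2 level at 36 and 48 h exceeded that at 12 and 24 h by at least 1. The seventh is the gene just inside the threshold, whose difference was 0.34. In libraries I and II of 12 h the 6 held 1.35 to 3.57 and 0.891 to 3.17 CPM, and in library III 14.8 to 51.4 CPM. At 24 h libraries I and II held 0.625 to 5.92 and 0.909 to 6.88 CPM, and library III 7.52 to 35.8 CPM. In libraries I and II of both times 0 of the 6 were past the 2-fold margin, and in library III of both times 6 of 6 were. At 36 and 48 h all 6 were past it in each of the 6 libraries, at 7.65 to 117 CPM at 36 h and 5.73 to 65.8 CPM at 48 h. At 0 h they held 0.164 to 4.99 CPM and in the mock 0.386 to 6.65 CPM.

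In the same library III of 12 h most of the other 38 members were low. Of these, 35 were lowest in III of the 3 libraries of 12 h and 3 were highest there, the seventh gene and Zm00001d002707 among the 3, and 28 were past the margin there, against 37 and 36 in I and II. At 48 h all 38 were lowest in library III, and 19 of them were past the margin there, against 38 and 37 in I and II. The median of the 38 over reference was 2.11, 1.98 and 1.37 on the log2 scale in libraries I, II and III of 12 h, and 1.66, 1.74 and 0.99 at 48 h. At 24 h it was 1.94, 1.99 and 1.74, and at 36 h 1.70, 1.70 and 1.55. Without library III of 12 h, 36 genes met the rule, all of them members, and the 6 were among the 8 lost. Without library III of 24 h, 37 genes met it and 9 members were lost, the 6 included. The same 8 members were lost in both. Without library III of 48 h, 51 genes met it, with all 44 members among them. In 16 members every one of the 12 libraries from 12 to 48 h was past the margin.

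**Figure D3:**
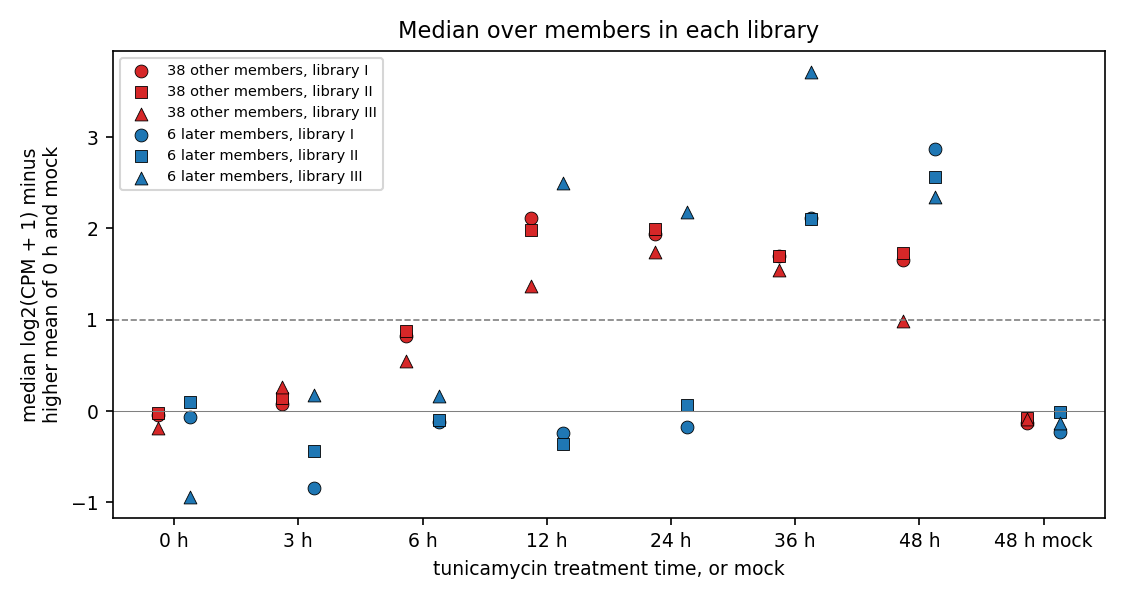
Median over members of log2(CPM + 1) minus the higher mean of 0 h and mock, for each library (circles, squares and triangles for I, II and III), with the dashed line at the 2-fold margin. At 12 and 24 h the 6 later members lie near 0 in libraries I and II (-0.36 to 0.07) and at 2.50 and 2.18 in library III, while the median of the other 38 is lower in III than in I and II. In library III the 6 lie at 3.71 at 36 h and 2.35 at 48 h, so the name later follows the group means and libraries I and II.

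The comparison of 6 h with 3 h asks whether the genes were already climbing before 12 h, in libraries that played no part in choosing them. The log2 fold change was above 0 in 37 of the 44 members, with a median of 0.52 and a range from -1.89 to 1.62. Over all 23753 genes it was above 0 in 12223, with a median of 0.01. In 30 members all 3 libraries of 6 h lay above all 3 of 3 h, and in 1 member all lay below. The same held for 21.1% and 11.4% of all 23753 genes. The test, however, called 1 member higher (edgeR, adjusted p below 0.05), where 0.0126% of all genes (3 genes) were called. That member was Zm00001d021120, which rose with a log2 fold change of 1.60 (adjusted p = 0.0295 in edgeR, SE 0.28) and was higher in 3 of 3 libraries. No member was called lower (0 genes, with 3 at an unadjusted p under 0.05), against 0.0421% of all genes. DESeq2 called 1 member lower, and 0.785% of all genes.

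This test called few genes of any kind, and its count hung on the fit. Of the 44 members, 22 were higher at an unadjusted p under 0.05 and 3 lower, against 4.61% and 7.54% of all genes. The single call became 6 with DESeq2 (0.143% of all genes), 9 with only the 3 h and 6 h libraries in the model (0.257%) and 4 with the library number as a term (0.143%). It became 0 with libraries I and II summed (0% of all genes), and 0 when any 1 library of 3 h, or either of I and II of 6 h, was left out. Dropping library III of 12 h from the fit made it 5 (0.0379%). The adjusted p of Zm00001d021120 was 0.869 with I and II summed, and at most 0.191 on leaving out 1 library.

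Against 0 h, 27 members were called higher and 0 lower at 6 h, where 14.1% of all genes were called higher and 13.8% lower (edgeR). The median log2 fold change was 0.87 over the 44 members and 0.02 over all genes. At 3 h, 10 members were called higher and 2 lower, where 8.28% of all genes were called higher and 7.41% lower. The median was 0.36 over the members and 0.01 over all genes. All 10 that were called higher at 3 h were called higher at 6 h too, and 15 members were called in neither direction at either time. The same overlaps were not counted over all genes, so they are not read as a trait of the members. Both times share the 0 h libraries, on which the rule set a ceiling, so these counts are a description. With libraries I and II summed, the 27 calls at 6 h became 2 and the 10 at 3 h became 1, where 0.0547% and 0.164% of all genes were called. The 10 became 6 when I or II of 0 h was left out (3.66% and 3.41% of all genes) and 5 when III of 3 h was left out (4.56%). The 27 became 18 when II of 0 h (5.74%), or I or II of 6 h (7.38% and 7.49%), was left out.

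**Figure D4:**
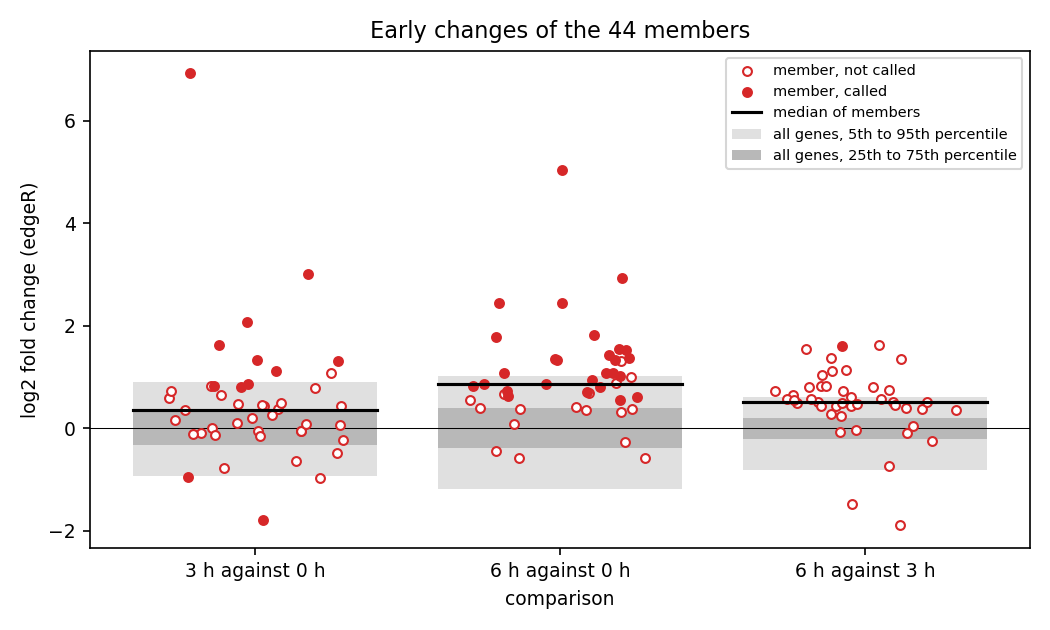
Log2 fold change (edgeR) of each of the 44 members in 3 early comparisons, filled where called at an adjusted p below 0.05, with the median as a line, over grey bands for all 23753 genes. The members' median is 0.36 at 3 h against 0 h, 0.87 at 6 h against 0 h and 0.52 at 6 h against 3 h, and 37 of the 44 lie above 0 in the last.

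By their early course the members fell into 3 kinds. Past the 2-fold margin over both references at 3 h were 6 members, and these 6 were past it at 6 h as well. A further 7 passed it at 6 h, and 31 at neither time. Of the 22997 genes past the floor, 0.731% passed it at 3 h and 0.296% at 6 h. Library III carried part of this count, which was 3 of the 44 without library III of 3 h (0.531% of the genes past the floor). All 44 had a higher mean at 12 h than at 6 h, with a median step of 1.18 on the log2 scale, against 0.59 from 3 to 6 h. Without library III of 12 h this held for 39 of the 44. A higher mean at 12 h than at 6 h was found in 46.1% of the genes past the floor with that library and 41.9% without it. The rule required a rise at 12 h and set nothing at 6 h, so these counts and the step of 1.18 are a description. No conclusion is drawn from them, or from setting that step beside the one from 3 to 6 h.

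Of the 6 early members, 4 had a higher mean at 3 h than at 6 h, and all 4 had a higher mean at 12 h than at 6 h. One of these had 27.7, 28.9 and 28.02 CPM at 0 h (libraries I, II and III) and 237, 224 and 202 CPM at 3 h. It then held 87.0, 91.2 and 74.1 CPM at 6 h and 151, 125 and 106 CPM at 12 h. Every library of 3 h lay above every one of 6 h, but the fall from 3 to 6 h did not pass the test (log2 fold change -1.47, SE 0.29, adjusted p = 0.067, edgeR). The adjusted p was 0.869 with I and II summed, and 0.063 to 0.259 on leaving out 1 library of 3 h or 6 h (edgeR). It was below 0.05 with DESeq2 (0.000664), and in edgeR with only the groups compared (0.0138) and with the library number as a term (0.0122). The same held on lane 6 (0.0122), on lane 7 (0.0089) and without library III of 12 h (0.040, all edgeR). In the other 3 the early peak stood in library III of 3 h. One held 13.1, 15.1 and 148 CPM at 3 h and 19.7, 19.3 and 10.9 CPM at 6 h, from 0.181, 0.373 and 0.859 CPM at 0 h. Another held 80.4, 78.8 and 233 CPM at 3 h and 87.9, 87.2 and 73.4 CPM at 6 h. The last held 3.31, 3.63 and 10.1 CPM at 3 h and 5.37, 4.85 and 5.02 CPM at 6 h. In libraries I and II these 3 genes were thus no higher at 3 h than at 6 h. The remaining 2 early members, Zm00001d021120 among them, had a higher mean at 6 h than at 3 h and at 12 h than at 6 h.

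A pair of members fell at 3 h. They are named because they were the 2 called lower at 3 h against 0 h, a choice made after the values were seen. Zm00001d044156 had 47.7, 44.6 and 57.97 CPM at 0 h (libraries I, II and III) and 15.5, 13.4 and 13.4 CPM at 3 h, with no overlap. Its log2 fold change was -1.79 (adjusted p = 0.0322 in edgeR, SE 0.55). At 6 h it held 20.1, 16.7 and 76.3 CPM, so that library III was above 0 h and libraries I and II below. In the mock it held 19.4, 20.01 and 96.7 CPM, with library III again the high one. At 12 h it stood at 203, 173 and 140 CPM, and at 48 h at 139, 127 and 97.9 CPM. Library III of 48 h thus lay barely above library III of the mock. Against 0 h its rise was called at 24 h (adjusted p = 0.0105, edgeR). It was not called at 12, 36 and 48 h (0.109, 0.0747 and 0.0918), nor at 48 h against the mock (0.382, all edgeR).

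Zm00001d002707 held 10.6, 12.4 and 6.79 CPM at 0 h and 4.87, 4.63 and 5.57 CPM at 3 h, again with no overlap. Its log2 fold change was -0.94 (adjusted p = 0.0419 in edgeR, SE 0.31). At 6 h it held 6.19, 6.35 and 8.03 CPM, within reach of the mock at 7.42, 8.16 and 7.68 CPM. At 12 h it held 41.5, 36.9 and 46.9 CPM and at 24 h 40.8, 63.9 and 27.1 CPM. Both calls at 3 h were lost with libraries I and II summed (adjusted p = 0.18 and 0.258, edgeR) and on lane 7 alone (0.0557 and 0.0885). The first was also lost on leaving out each of the 6 libraries compared in turn, and the second on leaving out 5 of them, library III of 0 h being the exception (highest adjusted p 0.0957 and 0.167, edgeR).

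Other sets cut by the same margin are given beside the 44 for 6 h against 3 h, and the difference between sets was not tested. The 54 genes past the margin at 36 and 48 h but not at 12 and 24 h had a median log2 fold change of 0.06 at 6 h against 3 h, with 29 of 54 above 0. The 11 genes that lay below both references by the margin from 12 to 48 h had a median of -1.06, with 1 of 11 above 0. The 3 genes that rose in the same way from under 1 CPM in both references had 3 of 3 above 0. Of these, 0 of the 54, 0 of the 11 and 1 of the 3 were called (edgeR), the last as higher. Over all genes 0.0126% were called higher and 0.0421% lower. An unadjusted p under 0.05 was found in 10 of the 54, 4 of them higher. It was found in 9 of the 11, 0 of them higher, and in 2 of the 3, 2 of them higher. Over all genes this held for 4.61% as higher and 7.54% as lower.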

How the data were processed

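Counts per gene were deposited by the authors as whole numbers, for 24 libraries of 8 groups, with the lanes of a library summed. A second table deposited by the authors holds RPKM per lane, and STAR, featureCounts and edgeR are named, with no version, per the submitters' processing notes. Not given in the sources used here are the genome build, the annotation and the handling of strand and gene copies, so counts of overlapping or near-identical genes are uncertain. Of the 48 lane samples, 47 were used. The submitters' label says that lane 7 of library II of 24 h was left out for its low read count. The lane reads and the length of each gene were recovered from RPKM and counts, and 100% of lane values and lengths came out whole within 0.01, with lane sums equal to the counts (largest difference 0).

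CPM is counts over the library total. Members follow the rule given at the opening (floor 1 CPM, margin 1 on the log2 scale, pseudocount 1). Tests used edgeR 4.0.16 in R 4.3.3, on all 23753 genes and all 8 groups in 1 model with TMM scaling, and genes were called below 0.05 after adjusting p by Benjamini and Hochberg. Filtering by expression in edgeR dropped 0 genes, so all 44 members were tested. SE is the fold change over the root of F. The steps were first tested on simulated data for 6 h against 3 h. There 0% of the 1.5-fold and 56% of the 2-fold changes were recovered. For 4-fold and 8-fold changes it was 96% and 98%, and 8 unchanged genes were called. The simulated libraries were drawn independently, with the spread set by abundance alone and without the closeness of I and II. These shares are thus not a measure of recovery in the data. There 410 of all genes had a log2 fold change of at least 1 at 6 h against 3 h, and 3 were called higher. DESeq2 1.42.0 was an alternative, as were other scalings, floors, margins, pseudocounts and lanes, fits on fewer groups or with the library number as a term, I and II summed, and each library left out. Counts at 3 h and 12 h without library III were added after seeing the data. Library numbers were tested as pairs by correlating deviations from group means. The 3 pairs gave 0.0756 to 0.0855 at 6 h against 3 h, 0.0752 to 0.108 at 3 h against 0 h and 0.161 to 0.213 at 6 h against 0 h, so that only the last passed the limit of 0.1 in every pair. In that comparison, however, library II of 6 h correlated best with library I of 0 h. The members and lists were chosen with earlier results of these data known. The rule for identifiers was the member with the largest lowest rise and the one with the highest RPKM at 48 h, each with no overlap between the 12 later libraries and the 6 reference libraries, and the 2 lowest of those called lower at 6 h against 3 h, of which there were 0.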

Additional observations from a re-analysis of the deposited data

Results flagged for a closer look

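Zm00001d021120 changed more against 0 h after 6 h than after 3 h, by a test of the difference itself (6 h against 3 h, log2 fold change 1.60, adjusted p = 0.0295, edgeR). It was higher in 3 of 3 libraries. The call was lost in 6 of 15 alternatives, namely with libraries I and II summed (adjusted p = 0.869, edgeR) and on leaving out any library of 3 h or library I or II of 6 h (0.0532 to 0.191).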

How the results depend on the processing

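The number of members was 44, and 24 of 28 alternatives kept it within 1.5 times. It fell to 28 with a margin of 1.2, to 28 on lane 6 (26 of them members), to 16 where every library had to pass, and to 0 with groups from the titles. Leaving out 1 library gave 36 to 51. Members called higher at 6 h against 3 h (1) became 6 with DESeq2 (0.143% of all genes), 9 with only the groups compared (0.257%) and 4 with the replicate block (0.143%). They became 0 with libraries I and II summed (0%), and 0 to 5 on leaving out 1 library (0% to 0.0379%). Members called lower there (0) became 1 with DESeq2 (0.785% of all genes), with only the groups compared (1.3%) and with the replicate block (0.636%). They were also 1 on lane 6 (0.0716%) and on lane 7 (0.0547%), and 0 to 1 on leaving out 1 library (0.00421% to 0.227%). With libraries I and II summed, members called higher were 1 at 3 h against 0 h (0.164% of all genes) and 2 at 6 h against 0 h (0.0547%), a fit with fewer libraries. Leaving out 1 library gave 5 to 13 and 18 to 29, where 3.41% to 10.1% and 5.74% to 16.5% of all genes were called. The block gave 11 and 28 (10.5% and 17.8% of all genes). Every library of 6 h correlated best with its own number at 3 h, but only at 0.0756 to 0.0855, under the limit of 0.1. The cause of these shifts was not tested. Chosen after seeing the data, leaving out library III of 3 h took the members past the margin at 3 h from 6 to 3 and those with a higher mean at 3 h than at 6 h from 5 to 2. A member without a call at 6 h against 3 h is not shown to be level.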
